A study of Mus musculus with 9 samples.

Results

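The genes of cholesterol synthesis and sterol regulation were followed in sorted proximal tubular epithelia of diabetic mice. They comprise 34 genes out of 24421 rows in the deposited table, and 34 of these 34 passed the filter on low counts, as did 15583 genes in all. The genes were chosen by their known function, not by a threshold, but with measured values in view: Cyp51 counts had already been seen to be higher in *db/db*-dapa mice than in their vehicle controls. Values of these 2 groups against each other are therefore given as a description. Calls of the 34 genes between them are counts only and are not read as a test. The same mice of each group enter 2 of the 3 comparisons, so none of the comparisons is independent of the others.

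All mice were on a C57BL/6 background and carried CreERT2 in the Slc34a1 locus (SLC34a1GCE) and the R26tdTomato reporter, so that tamoxifen turned on tdTomato in cells that use the Slc34a1 promoter. Each mouse of the 3 groups, controls included, received 5 injections of 3 mg tamoxifen from 8 weeks of age. The *db/m* mice, which carry 1 *db* allele of the leptin receptor gene, were the non-diabetic controls (n = 3). The *db/db* mice carry 2, are obese and diabetic and received vehicle (n = 3, called vehicle mice here). The *db/db*-dapa mice received dapagliflozin, an inhibitor of the sodium-glucose cotransporter SGLT2, at 1.5 mg/kg/day in drinking water for 8 weeks (n = 3, called treated mice here). Each library came from tdTomato+ cells of the kidney cortex of 1 mouse, and age at collection is not given in the sources used here.

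Nearly every cell can make cholesterol from acetyl-CoA. The mevalonate pathway builds farnesyl diphosphate, 2 of which are joined to squalene, and squalene is then closed into lanosterol and trimmed to cholesterol. When sterol in the endoplasmic reticulum falls, SCAP carries the transcription factor SREBP2 to the Golgi, where proteases free its active part, which turns on the genes of synthesis. INSIG proteins hold SCAP back when sterol is plentiful. Oxysterols, which accumulate with excess cholesterol, activate the nuclear receptors LXRα and LXRβ, and these turn on genes of cholesterol efflux such as Abca1. The proximal tubule takes up filtered albumin together with the lipid bound to it.

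Promoter sequences are shown for the 3 genes that passed the test in any comparison, Cyp51, Idi1 and Abca1, and for Hmgcs1, which holds the textbook sterol response element (SRE), the site that SREBP2 binds. Each is the 250 bases before the RefSeq start on GRCm38.p6, written 5′ to 3′ on the strand of the gene. Capitals mark an SRE (TCACNCCAC), a variant of it (TCACCTCAG), a CCAAT box or a GC box (GGGCGG), on either strand. For Cyp51 and Idi1 the outermost start in GENCODE, used for the gene positions, lies inside this window.
Hmgcs1, chr13:119690101-119690350, plus strand: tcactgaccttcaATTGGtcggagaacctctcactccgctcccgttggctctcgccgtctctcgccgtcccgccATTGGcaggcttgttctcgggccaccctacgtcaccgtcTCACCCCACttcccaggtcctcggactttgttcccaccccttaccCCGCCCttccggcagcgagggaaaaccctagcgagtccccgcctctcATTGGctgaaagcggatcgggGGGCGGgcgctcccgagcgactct
Idi1, chr13:8885356-8885605, plus strand: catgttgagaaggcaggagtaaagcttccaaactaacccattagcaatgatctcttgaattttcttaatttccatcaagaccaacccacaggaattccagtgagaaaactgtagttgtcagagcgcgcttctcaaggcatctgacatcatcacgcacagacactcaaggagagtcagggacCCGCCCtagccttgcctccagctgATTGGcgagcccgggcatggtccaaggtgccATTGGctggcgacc
Cyp51, chr5:4104698-4104947, minus strand: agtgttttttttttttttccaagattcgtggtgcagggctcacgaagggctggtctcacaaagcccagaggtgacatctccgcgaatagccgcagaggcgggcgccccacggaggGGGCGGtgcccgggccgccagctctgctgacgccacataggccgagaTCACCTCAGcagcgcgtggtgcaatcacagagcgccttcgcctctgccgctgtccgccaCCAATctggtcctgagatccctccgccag
Abca1, chr4:53159896-53160145, minus strand: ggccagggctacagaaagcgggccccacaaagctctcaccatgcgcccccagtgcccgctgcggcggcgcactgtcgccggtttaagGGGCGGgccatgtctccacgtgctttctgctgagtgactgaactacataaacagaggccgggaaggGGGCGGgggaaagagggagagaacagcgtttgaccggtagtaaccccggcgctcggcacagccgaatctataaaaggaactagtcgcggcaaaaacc

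The promoter table held 28 of the 34 genes, with 35 windows. A gene was counted if any of its windows held the motif. The shares of all promoters are of single windows, so the shares differ in unit and genes with several windows are favoured. Among these the SRE was found in Hmgcs1, 137 bases before its start, against 1.05% of 32851 mouse promoters. Shortened by its last base (TCACNCCA), it was also found in Msmo1 and Srebf2, against 3.67% of all promoters. The variant in Cyp51, which was added after its sequence had been read, begins 88 bases before the start and was in 0.295% of all promoters. CCAAT, the box bound by NF-Y, was in 21 of the 28 (75.0%) against 33.8% of all, and in 15 of the 16 synthesis enzymes with a promoter. GGGCGG, the GC box bound by Sp1, was in 22 of the 28 (78.6%) against 32.7% of all. A pair of AGGTCA copies set 4 bases apart, the element that LXR prefers, was in 0 of the 28 and in 0.0152% of all promoters. It was searched for in these exact letters only, so forms that differ in a base were not counted, in Abca1 or elsewhere. These matches describe the letters of the windows and were not tested for binding.

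The libraries held between 2733314 and 9033062 estimated counts, the fewest in vehicle replicate 1. Levels are in CPM, the counts scaled to a common library size, and 3 counts amounted to 0.339 to 1.02 CPM. A call needed an adjusted p below 0.1 in edgeR's quasi-likelihood test, corrected across all genes, and a log2 fold change beyond 1 in either direction. The 10 proximal tubule markers, which include Slc34a1, Lrp2 and Slc5a2, were all detected. Sums of other marker lists ran from 120 to 533 CPM for the collecting duct, 42.0 to 183 for endothelium, 16.5 to 220 for podocytes, 3.39 to 24.0 for fibroblasts and mural cells, 3.51 to 22 for T and B cells, 29.0 to 1450 for red cells and 2087 to 6774 for immediate-early genes. Vehicle replicate 3 stood apart from the other 2 vehicle mice in many genes. Leaving it out raised the number of genes called in treated against vehicle mice from 0 to 272, and it also moved several genes below, for which values without it are given. In sorted cells measured in bulk, fewer cells of a kind and less RNA per cell cannot be told apart.

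Cyp51 and Idi1, both of them enzymes of cholesterol synthesis, fell in vehicle mice. In vehicle against *db/m* mice, 2 of the 34 genes were called, both lower, where 1.26% of all genes were called. Of the 19 synthesis enzymes 13 were lower (11 when libraries were scaled by total counts), with a median log2 fold change of -0.16 against 0.02 for all genes. Scaling by total counts moved the median of all genes itself from 0.02 to 0.13, and that of the enzymes to -0.07. The plots of level by mouse show 8 of the genes.

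**Figure D1:**
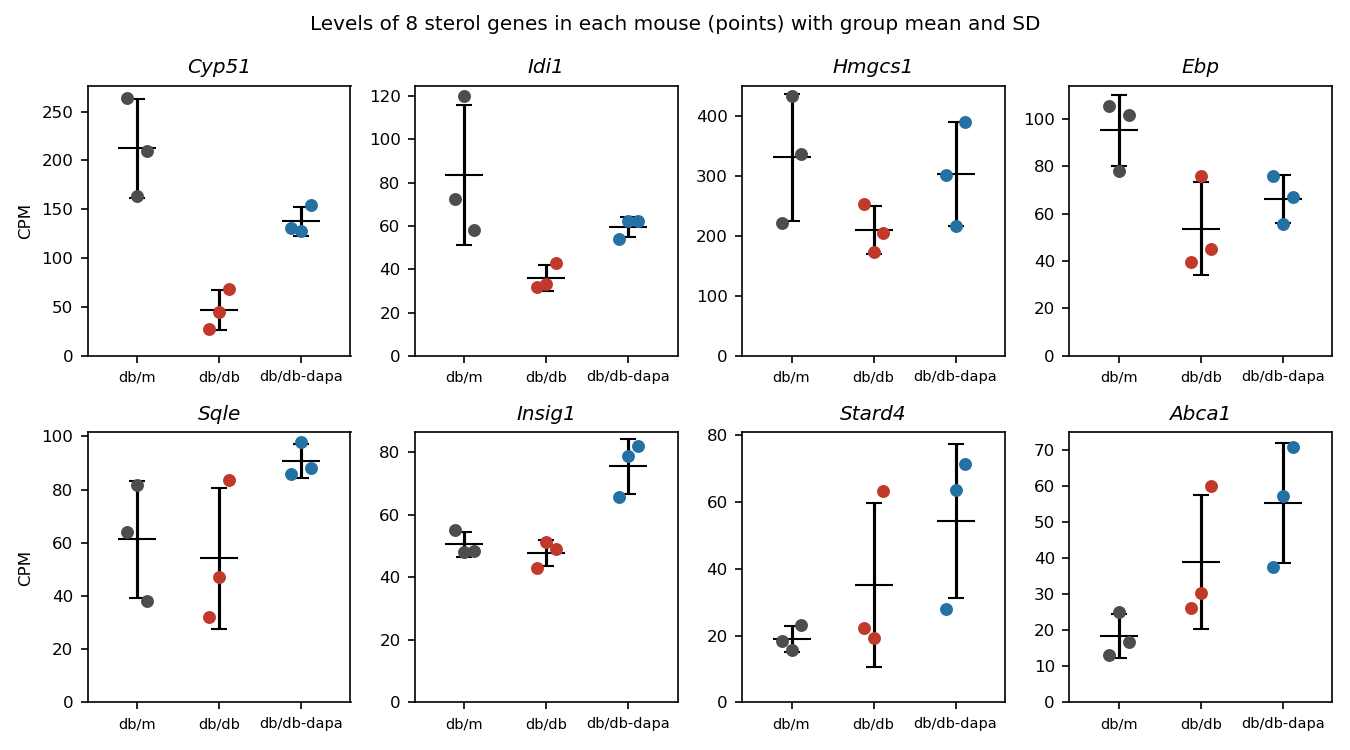
Level in CPM (vertical axes, linear, from 0) of 8 sterol genes in each of 9 mice; points are mice, bars the mean and SD of 3 mice. The 3 vehicle mice (db/db) sit below the other 6 for Cyp51 and Idi1, the 3 treated mice (db/db-dapa) above the other 6 for Sqle and Insig1, and the *db/m* mice below the other 6 for Abca1.

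Cyp51 encodes lanosterol 14-alpha-demethylase, which removes the first methyl group after the ring closure, and it lies on the minus strand of chromosome 5 from 4081145 to 4104746. Its levels were 264, 164 and 209 CPM in the *db/m* mice, 27.5, 44.6 and 68.2 CPM in the vehicle mice, and 131, 127 and 155 CPM in the treated mice. The 3 groups did not overlap, with *db/m* highest, vehicle lowest and treated between them. Group means were 212 ± 50.5, 46.8 ± 20.4 and 138 ± 14.9 CPM (SD, n = 3 each).

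Cyp51 fell by 2.17 on the log2 scale in vehicle against *db/m* mice, with a standard error of 0.30 and an edgeR adjusted p of 0.0088, a 4.49-fold lower level. It was called under each of 18 alternative settings, with adjusted p from 1.1e-09 to 0.050. The low vehicle values also entered the comparison in which Cyp51 had first been seen, and the settings refit the same mice. Neither the test nor the settings are therefore independent of the choice of Cyp51. Between treated and *db/m* mice the log2 fold change of Cyp51 was -0.63 (standard error 0.28, edgeR adjusted p = 0.27). In treated against vehicle mice it was 1.54 (standard error 0.29), a 2.91-fold higher level. It was 1.93 without vehicle replicate 3 and 1.28 without vehicle replicate 1. Per kilobase of its longest transcript, Cyp51 was at 54.0 CPM in *db/m*, 11.9 in vehicle and 35.0 in treated mice.

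Among the 8 enzymes that lead to farnesyl and geranylgeranyl diphosphate, Idi1 was the one that passed the test. It encodes isopentenyl-diphosphate isomerase, which interconverts the 2 isoprene building blocks, and lies on chromosome 13 from 8885501 to 8892451. Idi1 was at 72.6, 120 and 58.2 CPM in the *db/m* mice, 31.9, 33.4 and 43.0 CPM in the vehicle mice, and 54.1, 62.4 and 62.2 CPM in the treated mice. All 3 vehicle mice lay below every other mouse, and the *db/m* and treated mice overlapped.

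Idi1 fell by 1.21 in log2 in vehicle against *db/m* mice (standard error 0.25, edgeR adjusted p = 0.058). This call was kept in 12 of the 18 alternative settings. It was lost, at adjusted p of 0.11 to 0.15, when the fit held only the 6 mice compared and without *db/m* replicate 1 or 2, vehicle replicate 1 or 2, or treated replicate 2. The log2 fold change of Idi1 in treated mice was 0.71 against vehicle and -0.49 against *db/m* (adjusted p = 0.31).

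Hmgcs1, the synthase that makes HMG-CoA, had the highest level per kilobase of all 34 genes in *db/m* mice, 95.5 CPM. It was at 222, 433 and 337 CPM in *db/m*, 252, 174 and 205 CPM in vehicle, and 301, 217 and 390 CPM in treated mice. The groups overlapped, and the log2 fold change of -0.65 in vehicle against *db/m* mice did not pass (standard error 0.28, edgeR adjusted p = 0.33). Mvd, which decarboxylates mevalonate diphosphate, spanned 62.5 to 121 CPM in *db/m*, 48.6 to 63.8 CPM in vehicle and 68.5 to 85.2 CPM in treated mice, and the last 2 groups did not overlap.

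The other 5 early enzymes had log2 fold changes between -0.33 and 0.41 in vehicle against *db/m* mice, none called. They were the thiolase Acat2, the kinases Mvk and Pmvk, and the prenyl synthases Fdps and Ggps1. Ggps1, which makes geranylgeranyl diphosphate for protein prenylation and not for sterol, was at 13.8 to 15.8 CPM in *db/m* and 17.4 to 24.1 CPM in vehicle mice, without overlap, and was the only enzyme of the 19 that was higher in every vehicle mouse than in every *db/m* mouse (log2 fold change 0.41, adjusted p = 0.40). Mvk and Pmvk were low, with group means of 9.58 to 13.4 CPM for Mvk and 8.61 to 13.1 CPM for Pmvk. The *db/m* mean of Pmvk rested on replicate 3, at 23.1 CPM beside 8.03 and 8.20 CPM.

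Of the 11 enzymes from squalene synthase to cholesterol, 10 had higher levels in treated than in vehicle mice. Tm7sf2 was the exception, and of all genes 48.7% were higher. Fdft1 and Dhcr7, at log2 fold changes of 0.065 and 0.056, changed sign in some settings, Dhcr7 with total-count scaling among others. As this comparison helped to draw up the list, nothing is read from the count. Sqle, squalene monooxygenase, which adds the oxygen needed for ring closure and is a rate-limiting step, was at 64.1, 81.7 and 38.0 CPM in *db/m*, 31.9, 47.0 and 83.6 CPM in vehicle, and 85.7, 97.9 and 88.2 CPM in treated mice. Each treated mouse lay above the other 6, with vehicle replicate 3 close below them. The log2 fold change of Sqle in treated against vehicle mice was 0.73 (standard error 0.33). It was 1.20 without vehicle replicate 3 and 0.47 without vehicle replicate 1. Against *db/m* mice it was 0.56 (adjusted p = 0.37).

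Ebp, the sterol isomerase that moves the ring double bond, was lower in both diabetic groups than in *db/m* mice. It was at 106, 78.0 and 102 CPM in *db/m*, 39.8, 76.0 and 45.0 CPM in vehicle, and 75.7, 55.7 and 67.0 CPM in treated mice. The *db/m* mice lay above the other 6, with vehicle replicate 2 and treated replicate 1 close below them. The log2 fold change of Ebp in vehicle against *db/m* mice, -0.82 (standard error 0.25), did not pass with all mice (edgeR adjusted p = 0.18). It was -1.16 and called without vehicle replicate 2 (adjusted p = 0.071).

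Hsd17b7, a reductase of the steps after lanosterol, and Lss, the cyclase that forms lanosterol, had their highest means in the treated mice. Hsd17b7 was at 13.4, 15.9 and 13.6 CPM in *db/m*, 14.3, 16.2 and 23.6 CPM in vehicle, and 19.4, 25.5 and 28.6 CPM in treated mice. Its treated and *db/m* mice did not overlap, with a log2 fold change of 0.78 (edgeR adjusted p = 0.17). Lss spanned 18.9 to 21.3 CPM in *db/m*, 20.0 to 29.6 CPM in vehicle and 26.4 to 39.3 CPM in treated mice, with a log2 fold change of 0.67 against *db/m* (adjusted p = 0.17).

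Nsdhl, which like Msmo1 takes part in removing the methyl groups at carbon 4, spanned 94.3 to 97.9 CPM in *db/m*, 71.0 to 101 CPM in vehicle and 103 to 123 CPM in treated mice. Each treated mouse was above the other 6. Sc5d, the desaturase of a late step, spanned 28.0 to 48.2 CPM in *db/m*, 24.2 to 30.8 CPM in vehicle and 32.6 to 37.3 CPM in treated mice, without overlap between the last 2 groups. The squalene synthase Fdft1, Msmo1, the sterol reductase Tm7sf2 and Dhcr7, which performs the last reduction, overlapped in every comparison, with absolute log2 fold changes of at most 0.35.

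In treated against vehicle mice, 15 of the 19 enzymes were higher (14 of 19 with total-count scaling), where 48.7% of all genes were higher. Their median log2 fold change was 0.33 against -0.01 for all genes. Without overlap, 6 of the 19 (31.6%) were higher, namely Mvd, Idi1, Sqle, Cyp51, Nsdhl and Sc5d. Over all 34 genes, Insig1 and Nr1h3 joined them, which made 8 genes (23.5%) higher and 0 lower without overlap, where the shares of all genes were 4.9% and 5.29%. In all, edgeR called 0% of genes, 0 of the 34 among them, with 809 genes at an unadjusted p under 0.05, and over all genes DESeq2 called 13 and limma 0. Since this comparison had a part in drawing up the list, nothing is read from these counts and shares about the 34.

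**Figure D2:**
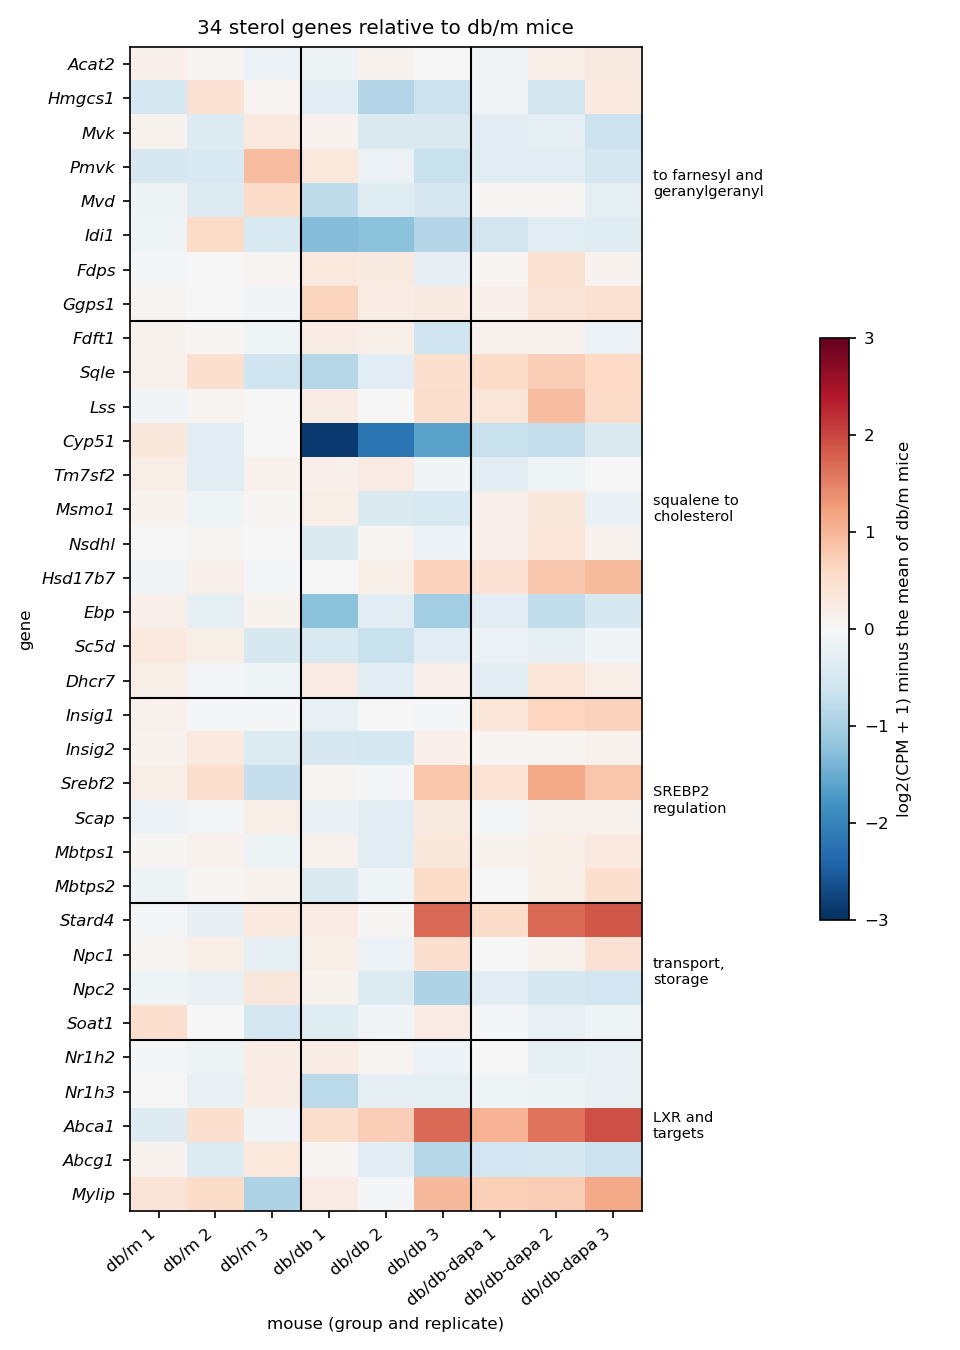
Level of each of the 34 genes (rows, by role) in each of 9 mice (columns), as log2(CPM + 1) minus the mean of the 3 *db/m* mice; red is higher and blue is lower, db/db is vehicle and db/db-dapa treated. Cyp51 and Idi1 are blue in the 3 vehicle mice. Stard4 and Abca1 are reddest in vehicle replicate 3 and in treated replicates 2 and 3, and Abca1 is above the *db/m* mean in every vehicle and treated mouse.

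Of the 6 regulators of SREBP2, 0 were called in any comparison. Their log2 fold changes in vehicle against *db/m* mice ran from -0.27 to 0.27. By group mean 6 of 6 were highest in treated mice, as were 5145 of all 15583 genes, and only Insig1 was so without overlap. Against *db/m* mice the log2 fold changes of Insig2 and Scap were both 0.056. Insig1, which retains SCAP and is itself a target of SREBP2, was at 55.3, 48.2 and 48.4 CPM in *db/m*, 43.2, 51.2 and 49.0 CPM in vehicle, and 65.6, 78.9 and 82.1 CPM in treated mice. The treated mice lay above the other 6, which overlapped each other. Its log2 fold change was 0.66 (standard error 0.16) against vehicle and 0.58 (standard error 0.16, edgeR adjusted p = 0.14) against *db/m* mice. The spread between mice was small for Insig1, with SDs of 4.03, 4.16 and 8.77 CPM in *db/m*, vehicle and treated mice.

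Srebf2, which encodes SREBP2, was at 62.5, 78.0 and 33.3 CPM in *db/m*, 57.8, 53.4 and 97.3 CPM in vehicle, and 73.5, 121 and 98.0 CPM in treated mice. The groups overlapped in every comparison, and vehicle replicate 3 lay within the range of the treated mice. The log2 fold change of Srebf2 in treated against *db/m* mice was 0.75 (standard error 0.32, edgeR adjusted p = 0.26).

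Insig2, the second INSIG, was at 36.2, 41.4 and 24.7 CPM in *db/m*, 23.8, 23.0 and 37.4 CPM in vehicle, and 34.8, 35.5 and 36.3 CPM in treated mice. Vehicle replicate 3 again stood with the treated mice. Scap was at 71.8, 79.2 and 92.4 CPM in *db/m*, 70.7, 64.8 and 96.9 CPM in vehicle, and 77.4, 88.2 and 87.3 CPM in treated mice, with a largest absolute log2 fold change of 0.12. Mbtps1 and Mbtps2, the proteases that cut SREBP2 in the Golgi, had log2 fold changes of 0.08 to 0.25 in the 3 comparisons.

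**Figure D3:**
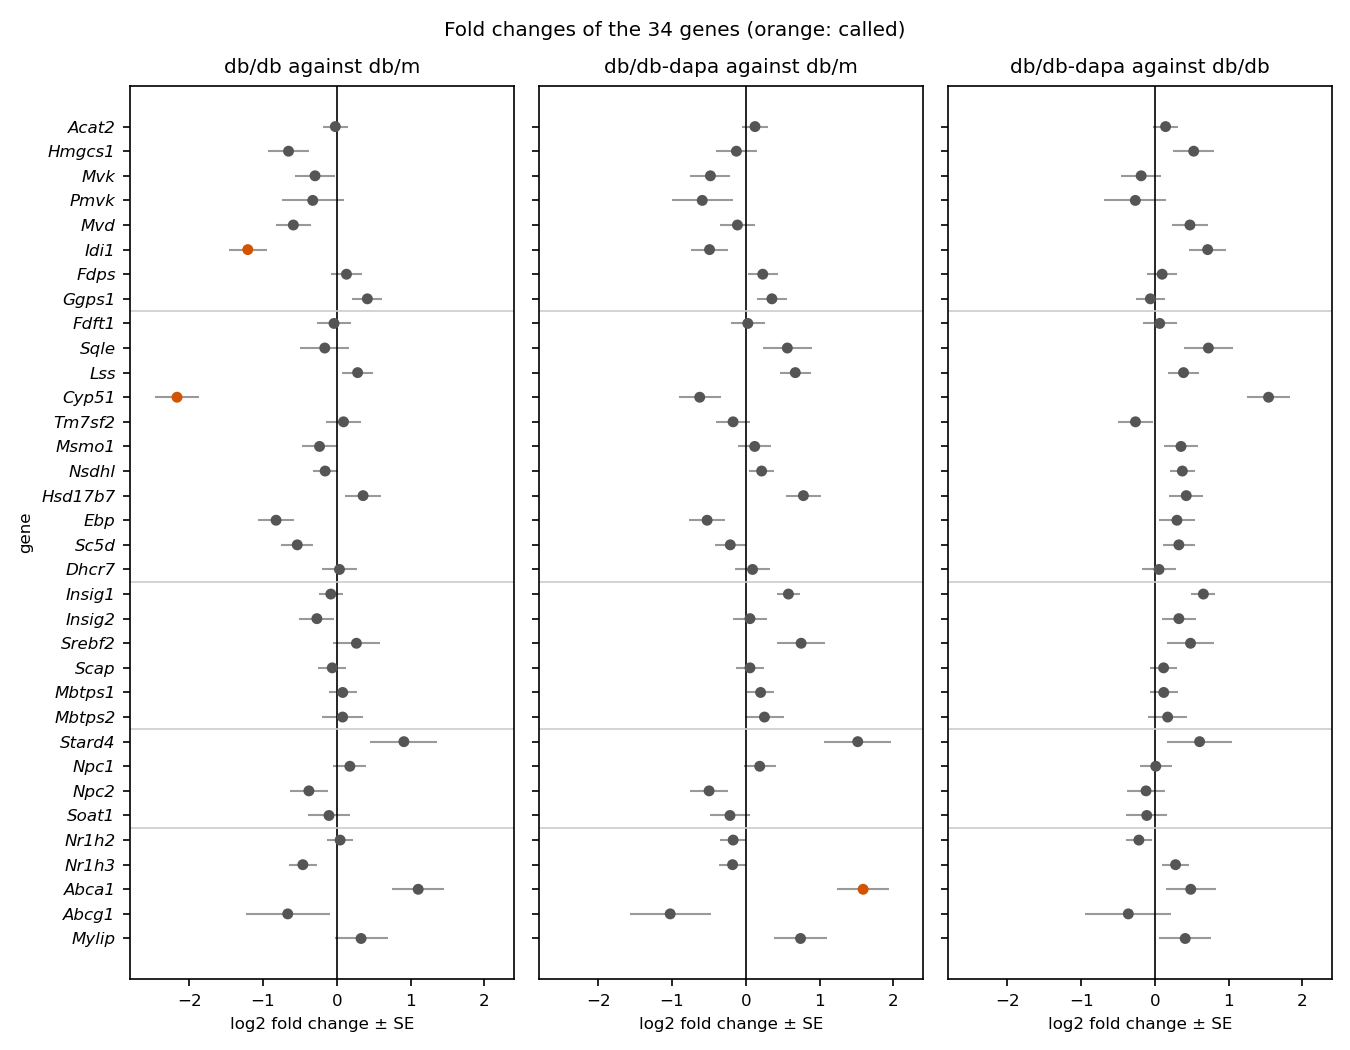
Fitted log2 fold change (horizontal axis) with its standard error of the 34 genes (vertical axis) in the 3 comparisons; orange points were called and grey ones were not. Cyp51 and Idi1 are orange in vehicle against *db/m*, Abca1 is orange in treated against *db/m*, and 0 points are orange in treated against vehicle.

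Abca1 and Stard4 were among the 12 of the 34 genes with their lowest mean in *db/m* mice, as were 5925 of all 15583 genes. Abca1, the transporter that loads cholesterol onto apolipoprotein A-I, lies on the minus strand of chromosome 4 from 53030787 to 53159895. It was at 13.2, 25.1 and 16.7 CPM in *db/m*, 26.2, 30.4 and 60.0 CPM in vehicle, and 37.6, 57.2 and 70.6 CPM in treated mice. The *db/m* mice lay below all others, while vehicle replicate 3 fell among the treated mice.

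Abca1 rose by 1.59 in log2 in treated against *db/m* mice (standard error 0.35, edgeR adjusted p = 0.087), a 3.01-fold higher level. It was the 1 gene of the 34 called in that comparison, where 1.05% of all genes were called. The call was kept in 12 of 18 alternative settings and lost, at adjusted p of 0.10 to 0.36, without *db/m* replicate 1, 2 or 3, vehicle replicate 2, or treated replicate 2 or 3. In vehicle against *db/m* mice the log2 fold change of Abca1 was 1.10 (standard error 0.36), which did not pass (adjusted p = 0.21), though DESeq2 called it (adjusted p = 0.081), and it was 0.62 without vehicle replicate 3. Between treated and vehicle mice it was 0.49, with 0.97 without vehicle replicate 3 and 0.28 without vehicle replicate 1.

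Macrophages are rich in Abca1, so their markers are given beside it. The 10 macrophage markers, all detected, summed to 222 to 516 CPM in *db/m*, 139 to 396 CPM in vehicle and 105 to 342 CPM in treated mice. The 2 mice with the lowest sums, treated replicate 3 and vehicle replicate 3, had the 2 highest levels of Abca1, at 70.6 and 60.0 CPM. The sum of the 10 proximal tubule markers moved with Abca1. It was 16760 to 17610 CPM in *db/m*, 18520 to 22680 CPM in vehicle and 19770 to 23960 CPM in treated mice, with vehicle replicate 3 and treated replicates 2 and 3 the highest of the 9 mice. Not every marker did so: 8 of the 10 were higher in vehicle than in *db/m* mice, and 6 of the 10 in treated than in vehicle mice. The sum of the markers of the thick ascending limb and distal tubule went the other way, at 1033 to 2375 CPM in *db/m*, 771 to 1633 CPM in vehicle and 741 to 852 CPM in treated mice. Of these 5 markers, 2 were higher in vehicle than in *db/m* mice. The part of either in the Abca1 and efflux values was not tested.

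Abcg1, the partner transporter that loads larger lipoproteins, was near the limit of detection, at 2.21, 1.22 and 2.67 CPM in *db/m*, 2.04, 1.40 and 0.632 CPM in vehicle, and 0.994, 1.05 and 0.905 CPM in treated mice. The treated mice lay below the *db/m* mice, at -1.02 in log2 (standard error 0.55, edgeR adjusted p = 0.33); the sign is opposite to that of Abca1, and the difference between the 2 transporters was not tested. Mylip, a ubiquitin ligase gene that LXR turns on, was at 72.8, 81.7 and 28.7 CPM in *db/m*, 66.3, 53.8 and 110 CPM in vehicle, and 91.6, 92.7 and 122 CPM in treated mice. The treated mice lay above the *db/m* mice, and vehicle replicate 3 was among them. The log2 fold change of Mylip against *db/m* mice was 0.74 (adjusted p = 0.29).

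Neither LXR receptor gene was called. Nr1h3, which encodes LXRα, was at 61.1, 52.7 and 72.7 CPM in *db/m*, 34.7, 49.8 and 50.1 CPM in vehicle, and 56.1, 55.8 and 52.6 CPM in treated mice. All vehicle mice lay below the other 6, by a log2 fold change of -0.46 against *db/m* (standard error 0.19, edgeR adjusted p = 0.31). Nr1h2, which encodes LXRβ, was at 79.7, 74.5 and 98.0 CPM in *db/m*, 98.2, 88.4 and 73.9 CPM in vehicle, and 83.5, 68.9 and 71.4 CPM in treated mice, and the groups overlapped.

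Stard4, a soluble carrier that moves cholesterol between membranes and a target of SREBP2, was at 18.3, 15.7 and 23.3 CPM in *db/m*, 22.4, 19.4 and 63.4 CPM in vehicle, and 28.1, 63.7 and 71.4 CPM in treated mice. Vehicle replicate 3 stood far above the other 2 vehicle mice. In treated against *db/m* mice the log2 fold change of Stard4 was 1.52 (standard error 0.45), which did not pass with all mice (edgeR adjusted p = 0.17) and was called in 4 of the 18 alternative settings, among them without vehicle replicate 3 (adjusted p = 0.023). Between treated and vehicle mice it was 0.61, with 1.40 without vehicle replicate 3 and 0.31 without vehicle replicate 2.

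Npc1 and Npc2 pass cholesterol out of the lysosome, and Soat1 esterifies it for storage. None was called. Npc2 was at 136 to 202 CPM in *db/m*, 82.9 to 171 CPM in vehicle and 107 to 126 CPM in treated mice, and its treated mice lay below the *db/m* mice (log2 fold change -0.50, adjusted p = 0.31). Npc1 and Soat1 overlapped in every comparison, with absolute log2 fold changes of at most 0.22.

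Counted over all 34 genes in vehicle against *db/m* mice, Ggps1 and Abca1 (5.88%) were higher without overlap and Idi1, Cyp51, Ebp and Nr1h3 (11.8%) lower, beside 8.28% and 8.14% of all genes. In treated against *db/m* mice 9 genes (26.5%) were higher without overlap, namely Ggps1, Sqle, Lss, Nsdhl, Hsd17b7, Insig1, Stard4, Abca1 and Mylip. Cyp51, Ebp, Npc2 and Abcg1 (11.8%) were lower, and the shares of all genes were 14.4% and 13.7%.

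To set synthesis beside efflux, the mean of log2(CPM + 1) was taken per mouse over the 19 enzymes and over Abca1 and Abcg1. The synthesis mean was 5.42, 5.38 and 5.40 in *db/m*, 5.09, 5.08 and 5.11 in vehicle, and 5.34, 5.47 and 5.42 in treated mice. The vehicle mice lay below the other 6, which overlapped. Without Cyp51 and Idi1, a choice made after the values were seen, the group means of the other 17 enzymes were 5.21 ± 0.035, 5.06 ± 0.039 and 5.28 ± 0.072 (SD, n = 3 each), and the vehicle mice were still the lowest 3.

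The efflux mean was 2.90 ± 0.13 in *db/m*, 3.21 ± 0.10 in vehicle and 3.38 ± 0.22 in treated mice (SD, n = 3 each). Synthesis minus efflux was 2.50 ± 0.14 in *db/m*, 1.89 ± 0.087 in vehicle and 2.03 ± 0.16 in treated mice. Both diabetic groups lay below every *db/m* mouse and overlapped each other. This held for treated mice only with 1 added to the CPM. With 0.1 added, treated replicate 1 reached the range of the *db/m* mice, and the vehicle mice stayed below it. The difference from the *db/m* mean then went from -0.62 to -0.52 in vehicle and from -0.47 to -0.33 in treated mice. With 1 added to the CPM, all 6 diabetic mice lay above the *db/m* mice in the efflux mean, through Abca1 and not Abcg1. With 0.1 added, each diabetic group overlapped the *db/m* mice in the efflux mean. In synthesis only the vehicle mice stood apart. These scores were built on the chosen genes and carry no test.

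**Figure D4:**
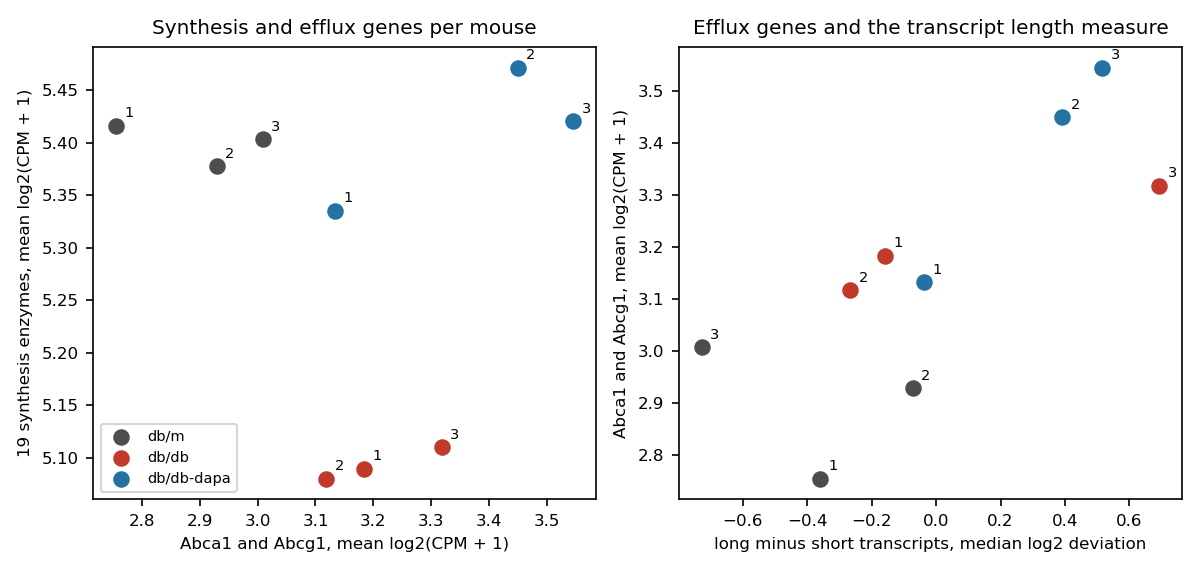
Left, mean log2(CPM + 1) of 19 synthesis enzymes (vertical) against that of Abca1 and Abcg1 (horizontal) per mouse; right, the latter (vertical) against the long-minus-short transcript measure (horizontal). Points are mice numbered by replicate and neither axis starts at 0; the 3 vehicle mice lie at 5.08 to 5.11 on synthesis, below the other 6, and vehicle replicate 3 has the highest transcript measure, 0.69.

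Other quantities moved with these means. The 6 heat shock genes summed to 8505 to 10720 CPM in *db/m*, 4347 to 5801 CPM in vehicle and 6399 to 10920 CPM in treated mice, so that they too were lowest in the 3 vehicle mice. In vehicle against *db/m* mice 4 of the 6 were lower without overlap and 1 was called, where the shares of all genes were 8.14% and 1.26%. The part of the heat shock genes in the synthesis values was not tested. The relative level of long and short transcripts also varied, measured as the median log2 deviation of long transcripts (at least 5263 bases) minus that of short ones (at most 1978 bases). It was -0.36, -0.07 and -0.73 in *db/m*, -0.16, -0.27 and 0.69 in vehicle, and -0.04, 0.39 and 0.52 in treated mice. Vehicle replicate 3 and treated replicates 2 and 3 were high in it, the same mice that were high in Abca1, Stard4 and Srebf2, whose longest transcripts have 10262, 5097 and 5077 bases. Of these only Abca1 reaches the cut for long transcripts. Mylip, at 3065 bases, was also highest in these mice, while Soat1, at 8371 bases, was not. The part of the length measure in these genes was not tested.

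Another 35 genes of sterol metabolism were compared by their median, and 34 of them were tested, Idi2 being the one that was not. The median log2 fold change over these was -0.02 in vehicle against *db/m*, 0.18 in treated against *db/m* and 0.21 in treated against vehicle mice. The list is not complete for the pathway, so no count of calls is drawn from it.

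Srebf1, which encodes the SREBP of fatty acid synthesis and is itself a target of LXR, was at 35.9, 31.8 and 39.3 CPM in *db/m*, 40.8, 31.2 and 47.6 CPM in vehicle, and 58.6, 76.2 and 72.6 CPM in treated mice. The treated mice lay above the other 6. Its log2 fold change of 0.96 against *db/m* mice had an edgeR adjusted p of 0.063 and was just short of the fold required, and against vehicle mice it was 0.79.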

How the data were processed

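RNA of tdTomato+ proximal tubular cells from 9 mice (3 *db/m* mice, 3 *db/db* mice and 3 *db/db*-dapa mice) was sequenced in single-end mode after a stranded poly(A) preparation. The submitters' processing notes name mm10, TopHat2 2.0.13, Bowtie2 2.2.3, SAMtools 0.1.19 and Cufflinks 2.2.1. The annotation and strand setting of the counting are not given in the sources used here. The table deposited by the authors is named for FPKM but holds estimated counts per gene, of which 90.95% were whole. These were rounded, genes at 0.3 CPM or more in at least 2 mice were kept, and edgeR 4.0.16 (TMM scaling, quasi-likelihood test, Benjamini-Hochberg over 15583 genes, R 4.3.3) was fitted to all 9 mice in 1 model. DESeq2 1.42.0, limma 3.58.1 on log2(CPM + 1), other scalings and filters, only the 6 mice compared, a replicate block and leaving out each mouse were alternatives. Standard errors were derived from the F statistics.

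The 34 genes, the other lists and the tests were chosen with earlier results of these data known. All 34 are named. Values per mouse are given for those called, the 5 with the largest change in each comparison, the LXR and efflux genes, and Insig1, Insig2, Srebf2 and Scap; those of Hmgcs1 and Srebf1 were added. Gene positions and transcript lengths are from GENCODE vM21 (GRCm38) and promoters from RefSeq (GRCm38.p6). Some genes of the pathway are not reported here. Each library is 1 mouse, and 3 mice per group limit the precision; the common biological coefficient of variation was 0.259.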

Additional observations from a re-analysis of the deposited data

How the results depend on the processing

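Of the 34 genes, 19 kept the sign of their log2 fold change under all 18 alternatives in vehicle against *db/m*, 22 in treated against vehicle and 25 in treated against *db/m*. In treated against vehicle, DESeq2 called 13 of 15583 genes, and the 1 of the 34 among them was Cyp51, which had already been seen to differ there. Leaving out each mouse gave 0 to 272 genes and 0 to 3 of the 34, the highest of both without vehicle replicate 3. As this comparison helped to draw up the list, these are counts only. In vehicle against *db/m*, 197 genes (86 higher, 111 lower) became 363 with DESeq2, 115 with the 6 mice compared and 85 to 230 leaving out each mouse, and 141 higher and 93 lower with total counts; of the 34, 3 were called with DESeq2 (Abca1 beside Cyp51 and Idi1), 1 with the 6 mice and 1 to 2 leaving out each. In treated against *db/m*, 164 genes became 275 without a filter, 507 with DESeq2, 630 with the 6 mice and 14 to 664 leaving out each mouse; of the 34, 2 were called with DESeq2, 2 with the 6 mice and 0 to 2 leaving out each.

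The median log2 fold change of the 19 enzymes was 0.26 with total counts and 0.23 to 0.33 leaving out each mouse in treated against vehicle. In vehicle against *db/m* it was -0.0704 with total counts, -0.18 with limma at a pseudocount of 0.1, -0.20 with the replicate block and -0.18 to -0.13 leaving out each mouse. In treated against *db/m* it was 0.0913 without Cyp51 and Idi1, a setting chosen after seeing the data, and -0.0212 to 0.0844 leaving out each mouse. The median of Abca1, Abcg1 and Mylip ranged from 0.21 to 0.79, -0.043 to 0.59 and 0.40 to 1.005 in the same order. Synthesis minus efflux in vehicle minus *db/m* was -0.62, and -0.45 without Cyp51 and Idi1. The labels do not say that a number pairs mice, and not every pair of mice with the same number deviated together (r from -0.32 to 0.56), and the replicate block gave 0, 185 and 166 genes and 0, 2 and 1 of the 34 in the 3 comparisons. The causes were not tested.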
